A study of Homo sapiens with 6 samples.

Results

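The 10 genes described here are NFE2L2, NQO1, HMOX1, GCLC, GCLM, TXNRD1, SLC7A11, SRXN1, GPX4 and SOD2, taken by symbol from the 58395 genes of the deposited expression table. NFE2L2 encodes the transcription factor NRF2, and the other genes encode enzymes and a transporter of the antioxidant defence. The data were 6 RNA-seq libraries of M14, an established human melanoma cell line grown without attachment as melanospheres. The spheres were dissociated mechanically, stained for the surface protein CD20 and flow sorted into 3 CD20-positive and 3 CD20-negative fractions, with no treatment or genetic change named in the labels for either. Replicates are numbered 1 to 3 in each group. No label gives them separate cultures, so the spread that the p-values measure is that between these samples and may be technical. The limma p-values below also draw on the spread pooled over genes.

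In unstressed cells NRF2 is held in the cytoplasm by KEAP1, an adaptor of a CUL3 ubiquitin ligase, and is degraded by the proteasome. Oxidants and electrophiles modify cysteines of KEAP1, and NRF2 then accumulates and binds, with small MAF proteins, to antioxidant response elements (AREs) near its target genes. NRF2 is therefore controlled largely at the protein level, and its activity is commonly read from its target transcripts. In melanoma, cystine uptake through SLC7A11 and the lipid peroxidase GPX4 are known for protecting cells from ferroptosis, a death by iron-dependent lipid peroxidation.

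The ARE core, searched as TGACNNNGC on both strands, was looked for in the 250 bases before each transcription start listed by RefSeq (GRCh38.p14). Of the 10 genes, 8 had a listed start, with 15 windows in all, while HMOX1 and SLC7A11 had none in the table used. The core was in 3 of the 15 windows, against 10.9% of 35116 windows over all genes. The 3 windows belong to GCLM and TXNRD1, and are shown with the core in capitals, read in the direction of the gene (the capitals of GCLM, KEAP1 and the second TXNRD1 window are on the opposite strand). KEAP1 and SLC3A2 are shown for comparison, as the partner of NRF2 and the partner chain of SLC7A11.
GCLM, chr1:93909431-93909489, minus strand: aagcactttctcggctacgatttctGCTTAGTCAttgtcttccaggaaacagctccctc
TXNRD1, chr12:104215655-104215713, plus strand: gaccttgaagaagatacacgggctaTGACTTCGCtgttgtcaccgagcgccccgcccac
TXNRD1, chr12:104286905-104286963, plus strand: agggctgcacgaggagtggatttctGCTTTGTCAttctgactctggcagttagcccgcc
KEAP1, chr19:10502772-10502827, minus strand: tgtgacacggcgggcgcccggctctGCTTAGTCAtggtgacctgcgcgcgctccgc
SLC3A2, chr11:62881637-62881695, plus strand: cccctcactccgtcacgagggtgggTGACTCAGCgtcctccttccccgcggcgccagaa
The GCLM core begins 34 bases before the RefSeq start on the gene's strand. The gene coordinates given below for GCLM, from another annotation, reach 93909456, so part of its printed stretch lies inside them. The 9 letters of the GCLM core are the same as those in capitals for KEAP1, whose stretch also holds a further core, TGACACGGC, left in lower case. The SLC3A2 core overlaps an AP-1 site (TGANTCA), which none of the 15 windows of the 10 genes held, against 6.57% of all windows. A match describes letters only, and AREs known outside these windows were not searched.

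Levels are given in FPKM, a unit that divides fragments by exon length and by a library size. They corresponded to 15651172 to 17479732 recovered fragments per CD20-positive library and 16666544 to 17915936 per CD20-negative library. MS4A1, which encodes CD20, had 1.24, 0.966 and 1.28 FPKM in the CD20-positive libraries, against 0.225, 0.263 and 0.403 FPKM in the CD20-negative libraries, so the groups did not overlap (exact permutation test, two-sided, p = 0.1, the smallest that 3 against 3 can give). Mitochondrially encoded genes took 11.9% to 20.6% of the fragments in CD20-positive libraries and 4.25% to 5.73% in CD20-negative libraries. Cytosolic ribosomal protein genes took 2.86% to 4.57% in CD20-positive and 7.13% to 7.46% in CD20-negative libraries. Among markers of the labelled lineage, SOX10, TYR, TYRP1, DCT and S100B stayed below 0.1 FPKM in each of the 6 libraries, and only 3 of 9 melanocytic markers reached a mean of 1 FPKM, PMEL being the highest. The 9 melanocytic markers summed to 30.7 to 37.3 FPKM in CD20-positive and 20.7 to 22.7 FPKM in CD20-negative libraries, and the 9 fibroblast and endothelial markers to 38.3 to 52.2 FPKM in CD20-positive and 26.6 to 35.5 FPKM in CD20-negative libraries, both without overlap. The latter sum came mostly from COL1A1, with a mean of 31.6 FPKM over the 6 libraries. Only 2 of these 9 markers reached a mean of 1 FPKM, and PDGFRA, DCN, LUM and THY1 stayed below 0.1 FPKM in each library. The 7 epithelial markers, led by KRT8, summed to 442 to 504 FPKM in CD20-positive and 333 to 481 FPKM in CD20-negative libraries. The 12 B lineage markers summed to 6.54 to 8.49 FPKM in CD20-positive and 4.26 to 8.31 FPKM in CD20-negative libraries, with PAX5, FCRL1, BANK1 and CR2 below 0.1 FPKM in each library. The 9 T cell and myeloid markers summed to 0.242 to 0.441 FPKM in CD20-positive and 0.119 to 0.284 FPKM in CD20-negative libraries, and CD3E, CD3D, CD2 and FCGR3A were listed at 0 throughout. The part of these differences in the results that follow was not tested. In sorted bulk RNA, fewer cells of a type and less RNA per cell cannot be told apart.

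None of the 10 genes passed the test between the fractions, although 9 of 10 had a lower mean log2 level in the CD20-positive libraries. The test was limma on log2(FPKM + 1) over the 13155 genes averaging 1 FPKM or more. Changes are CD20-positive minus CD20-negative, and p-values were adjusted by the Benjamini-Hochberg method over all genes tested, with a threshold of 0.05. It called 1 gene, or 0.0076% of those tested, the mitochondrial tRNA gene MT-TE (chosen after its values were seen), and 1210 genes (9.2%) had an unadjusted p under 0.05. All 10 genes were tested, 0 were called and 0 had an unadjusted p under 0.05. Their median log2 change was -0.18, against 0.00025 over all genes tested, of which 49.9% were below 0. The same-numbered libraries of both groups deviated together, most in replicate 1 (correlation 0.67) and least in replicate 2 (0.24). A second fit, called paired here, therefore took the replicate number as a blocking term, although the pairing of replicates 2 and 3 is less sure. The paired fit called 767 genes (5.83%, of which 2.64% of those tested were lower in CD20-positive cells) and again 0 of the 10, and NQO1, SRXN1 and GPX4 had an unadjusted p under 0.05, as did 21.3% of all genes. Voom, a limma fit on the recovered fragments, called 0 of the 10 without the block and 2 with it, GPX4 and SRXN1, where it called 11.7% of 13141 genes. Most intervals are wide, so these tests do not show that the fractions were alike.

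**Figure D1:**
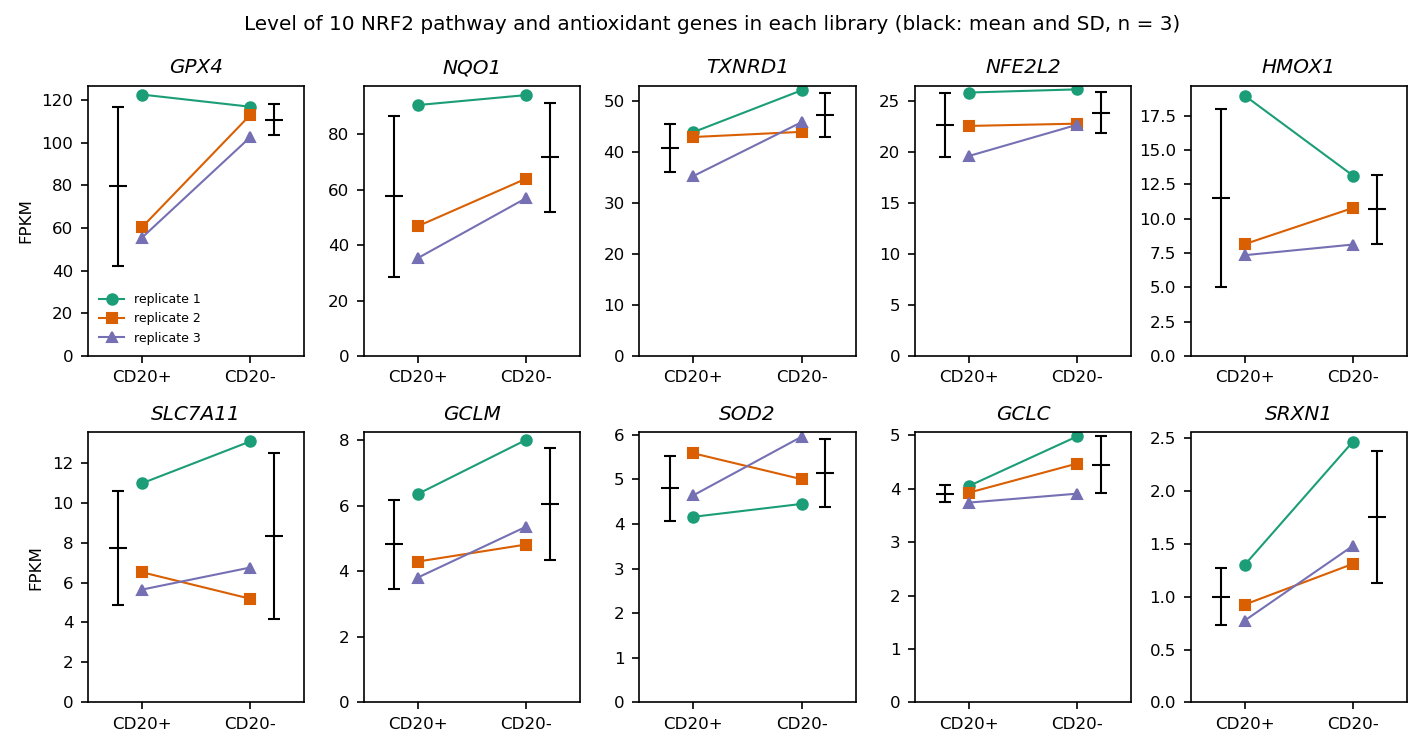
FPKM of each of the 10 genes (vertical axes from 0) in the CD20-positive and CD20-negative libraries, ordered by mean level, with lines joining libraries of the same replicate number and black marks for the mean and SD (n = 3). The replicate 1 line lies above the others in both fractions for NFE2L2, NQO1, HMOX1, GCLM, SLC7A11 and GPX4, and below them for SOD2.

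NFE2L2 itself was steady (ENSG00000116044, GRCh38 chromosome 2, 177227595 to 177392697, minus strand). It measured 25.8, 22.5 and 19.6 FPKM in CD20-positive replicates 1, 2 and 3, against 26.1, 22.7 and 22.6 FPKM in CD20-negative replicates 1, 2 and 3. The CD20-positive library was the lower one within each replicate number, with ratios of 0.988, 0.990 and 0.865, and the groups overlapped. The log2 change was -0.08 ± 0.15 (SE), with a 95% interval of -0.44 to 0.28 (limma, adjusted p = 0.913). Over the 6 libraries the highest NFE2L2 level was 1.33 times the lowest. Its exons share 1054 of 5979 bases with another gene on the same strand (ENSG00000213963), and 244 with genes on the other strand. Among genes averaging 10 FPKM or more, SH2D4A and EIF4A3 were among the 3 whose centred log2 levels lay nearest to those of NFE2L2 over the 6 libraries, with root mean square differences of 0.028 and 0.029, out of 4502 genes compared. KEAP1, the inhibitor of NRF2, measured 19.8, 12.8 and 12.3 FPKM in CD20-positive libraries, against 14.8, 14.97 and 13.0 FPKM in CD20-negative libraries. Its log2 change of 0.04 ± 0.20 (limma, adjusted p = 0.967) became -0.17 without CD20-positive replicate 1, the one library in which KEAP1 stood high.

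NQO1, a quinone reductase and a widely used readout of NRF2 activity, followed the replicate number more than the fraction (ENSG00000181019, chromosome 16, 69706996 to 69726951, minus strand). It measured 90.6, 46.8 and 35.3 FPKM in CD20-positive replicates 1, 2 and 3, against 94.2, 64.0 and 57.0 FPKM in CD20-negative replicates 1, 2 and 3. Each CD20-positive library was below its CD20-negative partner, with ratios of 0.962, 0.732 and 0.620, but both replicate 1 libraries lay above the other 4, so the groups overlapped. The log2 change was -0.39 ± 0.37, with a 95% interval of -1.25 to 0.47 (limma, adjusted p = 0.775). In the paired fit the SE was 0.17 (adjusted p = 0.206), and dropping the replicate 1 pair gave -0.56 and a call (adjusted p = 0.00659). The fit behind that call leaned on the spread pooled over genes, as described below for GPX4. Dropping the replicate 2 or the replicate 3 pair gave no call of NQO1 (adjusted p = 0.409 and 0.983), and leaving out 1 library without the block gave changes of -0.77 to -0.10. An antisense gene, ENSG00000261602, covers 17.7% of its exon bases on the other strand, and whether counting used strand is not given in the sources used here.

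HMOX1, haem oxygenase 1, which breaks down haem and is induced by oxidants, showed no common direction (ENSG00000100292, chromosome 22, 35380361 to 35394214, plus strand). It measured 19.0, 8.14 and 7.34 FPKM in CD20-positive replicates 1, 2 and 3, against 13.1, 10.8 and 8.11 FPKM in CD20-negative replicates 1, 2 and 3. The CD20-positive library was the higher one in replicate 1 (ratio 1.44) and the lower one in replicates 2 and 3 (0.756 and 0.904). Its log2 change of 0.0015 ± 0.35 thus averaged opposite moves (95% interval -0.83 to 0.83, limma, adjusted p = 0.999), and it became -0.40 without CD20-positive replicate 1.

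Among the genes of glutathione supply, SLC7A11 and GCLM went mostly with the replicate number. For GCLC the replicate number held 45.8% of the variation and the fraction 42.2%, shares that are not like for like, as described below. SLC7A11 is the transporter chain that takes up cystine in exchange for glutamate (ENSG00000151012, chromosome 4, 138164097 to 138242349, minus strand). It measured 11.0, 6.51 and 5.65 FPKM in CD20-positive libraries, against 13.1, 5.19 and 6.75 FPKM in CD20-negative libraries, with both replicate 1 libraries highest. Its log2 change was -0.06 ± 0.35 (95% interval -0.88 to 0.77, limma, adjusted p = 0.975), and it was 0.28 without CD20-negative replicate 1. GCLC, the catalytic subunit of glutamate-cysteine ligase, the first enzyme of glutathione synthesis, measured 4.05, 3.92 and 3.74 FPKM in CD20-positive libraries, against 4.98, 4.47 and 3.91 FPKM in CD20-negative libraries (ENSG00000001084, chromosome 6, 53497341 to 53616970). The lowest CD20-negative value lay within the range of the CD20-positive libraries, and the log2 change was -0.15 ± 0.13 (95% interval -0.45 to 0.16, limma, adjusted p = 0.755).

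GCLM, the modifier subunit of the same ligase, measured 6.35, 4.29 and 3.80 FPKM in CD20-positive libraries, against 7.999, 4.81 and 5.35 FPKM in CD20-negative libraries (ENSG00000023909, chromosome 1, 93885205 to 93909456). It is one of the 2 genes with an ARE core in the searched window. CD20-positive was the lower library in 3 of 3 pairs, with ratios of 0.794, 0.892 and 0.711, and the log2 change was -0.28 ± 0.23 (95% interval -0.82 to 0.27, limma, adjusted p = 0.746). On the FPKM scale GCLM lay above GCLC in each of the 6 libraries, with exon lengths of 5420 bases for GCLM and 8646 for GCLC. Their coding transcripts had median lengths of 3932.5 and 2821.5 bases, so this order depends on the length used.

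TXNRD1 and SRXN1 were the only genes of the 10 whose groups did not overlap, with each CD20-positive library below each CD20-negative library. Among all genes tested this held for 6.14%. None of the 10 had each CD20-positive library above each CD20-negative library, which held for 8.87% of all genes. TXNRD1, cytosolic thioredoxin reductase, a selenoprotein that keeps thioredoxin reduced, measured 43.86, 42.90 and 35.3 FPKM in CD20-positive libraries, against 52.1, 43.92 and 45.8 FPKM in CD20-negative libraries (ENSG00000198431, chromosome 12, 104215779 to 104350305). The highest CD20-positive and the lowest CD20-negative library were nearly level (exact permutation test, p = 0.1), and the log2 change was -0.21 ± 0.16 (95% interval -0.59 to 0.16, limma, adjusted p = 0.711).

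SRXN1, sulfiredoxin, which repairs over-oxidised peroxiredoxins, was the lowest of the 10 (ENSG00000271303, chromosome 20, 646615 to 653370, minus strand). It measured 1.30, 0.925 and 0.774 FPKM in CD20-positive libraries, against 2.46, 1.31 and 1.48 FPKM in CD20-negative libraries, a ratio of means of 0.571 (exact permutation test, p = 0.1). These values rest on 53, 40 and 33 fragments in CD20-positive libraries and 125, 63 and 79 fragments in CD20-negative libraries. The log2 change was -0.45 ± 0.21 (95% interval -0.94 to 0.04, limma, adjusted p = 0.573, and 0.115 in the paired fit), and voom with the block called it at -0.82 (adjusted p = 0.0353). Its level is uncertain, since 85.0% of its exon bases are shared with ENSG00000270299 on the same strand and how such reads were assigned is not given in the sources used here.

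GPX4, the selenoenzyme that reduces lipid peroxides in membranes, had the highest level of the 10 and the widest difference in mean log2(FPKM + 1) (ENSG00000167468, chromosome 19, 1103926 to 1106791, plus strand). It measured 122.6, 60.4 and 55.5 FPKM in CD20-positive replicates 1, 2 and 3, against 116.9, 113.1 and 102.7 FPKM in CD20-negative replicates 1, 2 and 3. CD20-positive replicates 2 and 3 lay at ratios of 0.534 and 0.541 to their partners, while CD20-positive replicate 1 was the highest of all 6 libraries, at a ratio of 1.05. Means were 79.5 ± 37.4 FPKM in the CD20-positive libraries, against 110.9 ± 7.38 FPKM in the CD20-negative ones (SD, n = 3, exact permutation test, p = 0.4). On scales that compress low genes less, SRXN1 differed more than GPX4: the log2 changes were -0.73 for SRXN1 and -0.57 for GPX4 at a pseudocount of 0.1, and -0.81 for SRXN1 and -0.60 for GPX4 in voom.

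The GPX4 call depended on the fit and on replicate 1. Its log2 change was -0.57 ± 0.31 (95% interval -1.29 to 0.16, limma, adjusted p = 0.630, and 0.143 in the paired fit). When only the 4503 genes averaging 10 FPKM or more were tested, the block led to a call of GPX4 as lower (adjusted p = 0.0165), the 1 called of 5 of the 10 genes that were tested. That setting called 21.2% of genes, 9.93% higher and 11.3% lower, while without the block 0.0222% were called, all higher, and 0 of the 5. Voom with the block also called GPX4 lower (adjusted p = 0.00311). Without CD20-positive replicate 1 the change was -0.92 and passed without the block (adjusted p = 0.0242), and dropping the replicate 1 pair gave -0.88 in the paired fit (adjusted p = 1.48e-06). Dropping the replicate 2 or the replicate 3 pair gave adjusted p = 0.473 and 0.823. In the paired fits at 10 FPKM and without the replicate 1 pair, limma gave the pooled spread infinite weight for the median gene. Small p-values of these fits thus rest, for most genes, on the spread pooled over genes and not on the gene's own. CD20-positive replicate 1 had the highest mitochondrial share of fragments (20.6%) and the highest ribosomal protein share of its group (4.57%). GPX4 also has short coding transcripts, with a median of 807.5 bases, and the 1652 tested coding genes with medians of 700 to 1000 bases had a median log2 change of -0.05, against 0.047 for the 2055 genes with 2500 to 4000 bases. The part of these measures in the GPX4 values was not tested.

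SOD2, the manganese superoxide dismutase of mitochondria, was lowest in replicate 1, where 6 of the other genes were highest (ENSG00000112096, chromosome 6, 159669057 to 159745186, minus strand). It measured 4.16, 5.59 and 4.64 FPKM in CD20-positive libraries, against 4.45, 5.01 and 5.96 FPKM in CD20-negative libraries, with both replicate 1 libraries lowest. The log2 change was -0.08 ± 0.16 (95% interval -0.45 to 0.28, limma, adjusted p = 0.908). The level of SOD2 is uncertain. A second identifier with the same symbol (ENSG00000285441, 159679119 to 159762529) shares 845 exon bases with it and is listed at 0 in each library, where 3 fragments would be at most 0.0776 FPKM. The exons assigned to the first identifier span 16493 bases while its median coding transcript has 866, so FPKM on that length would understate a short transcript.

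**Figure D2:**
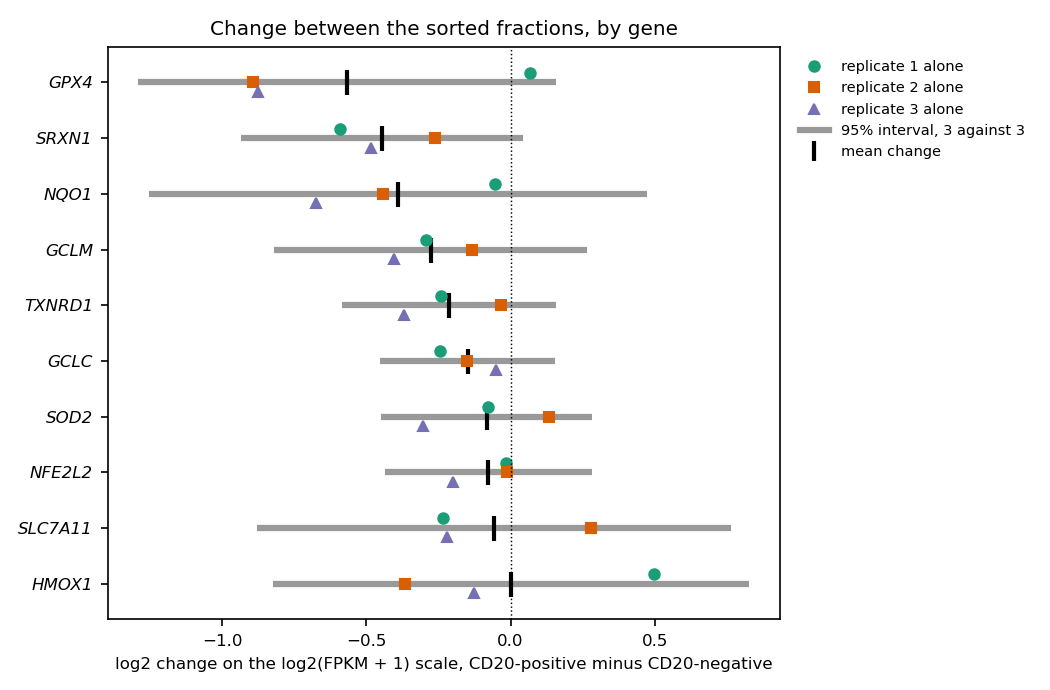
Change in log2(FPKM + 1), CD20-positive minus CD20-negative, for each gene: black bar, mean change; grey bar, 95% limma interval of 3 against 3; coloured points, the difference within each replicate number. The grey bars of all 10 genes cross 0, and the GPX4 points of replicates 2 and 3 lie at -0.89 and -0.87 while that of replicate 1 lies at 0.07.

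By mean FPKM over the 6 libraries the order was GPX4 (95.2), NQO1 (64.7), TXNRD1 (43.97), NFE2L2 (23.2), HMOX1 (11.1), SLC7A11 (8.02), GCLM (5.44), SOD2 (4.97), GCLC (4.18) and SRXN1 (1.38). TXNRD1 and NFE2L2, NFE2L2 and HMOX1, and GCLC and SRXN1 were separated in all 6 libraries with no overlap of their ranges. GPX4 was above NQO1, NQO1 above TXNRD1, HMOX1 above SLC7A11 and SLC7A11 above GCLM within each of the 6 libraries, although their ranges overlapped. GCLM and SOD2 did not keep an order, with GCLM higher in 2 of 6 libraries, and SOD2 was above GCLC in 5 of 6. Levels across genes are set by the exon length used, so the places of SOD2 and SRXN1 carry the limits given above. The exon length was also longer than the median coding transcript in other genes. It was 5979 against 977 bases for NFE2L2, 6708 against 1933 for TXNRD1 and 8646 against 2821.5 for GCLC. For SLC7A11 both were 9645 bases. The whole order therefore depends on the exon lengths used. The width of the spread differed between genes. SRXN1, NQO1, HMOX1 and SLC7A11 had a highest library 3.19, 2.67, 2.58 and 2.52 times the lowest, whereas NFE2L2, GCLC, SOD2 and TXNRD1 stayed within 1.33, 1.33, 1.43 and 1.48 times.

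Much of the spread in these genes went with the replicate number. Both replicate 1 libraries lay above the other 4 for 6 of the 10 genes (NFE2L2, NQO1, HMOX1, GCLM, SLC7A11 and GPX4), against 23.5% of the genes tested, and below the other 4 for SOD2 alone, against 20.8%. CD20-positive replicate 1 stood at 2.45 times the mean of CD20-positive replicates 2 and 3 for HMOX1, 2.21 times for NQO1, 2.12 times for GPX4 and 1.80 times for SLC7A11. CD20-negative replicate 1 stood at 2.19 times the mean of CD20-negative replicates 2 and 3 for SLC7A11, 1.56 times for NQO1, 1.39 times for HMOX1 and 1.08 times for GPX4. The labels give no condition to a replicate number, so these are values without a test.

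Splitting the variation of log2(FPKM + 1) of each gene over the 6 libraries gave a median of 18.5% between fractions and 66.7% between replicate numbers for the 10 genes, beside medians of 17.3% and 51.7% over all genes tested. The replicate number held 92.1% of the variation of SLC7A11, 82.9% of HMOX1, 80.99% of NFE2L2, 77.5% of NQO1 and 75.5% of GCLM. The raw share of the fraction was above that of the replicate number in SRXN1 (52.6% against 42.5%) and TXNRD1 (43.9% against 37.9%) only. There are more replicate numbers than fractions, so noise alone tends to give the replicate number the larger share. The shares of fraction and replicate number are therefore not like for like. In GPX4 the shares were 37.9% and 38.2%, with 23.8% in neither.

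**Figure D3:**
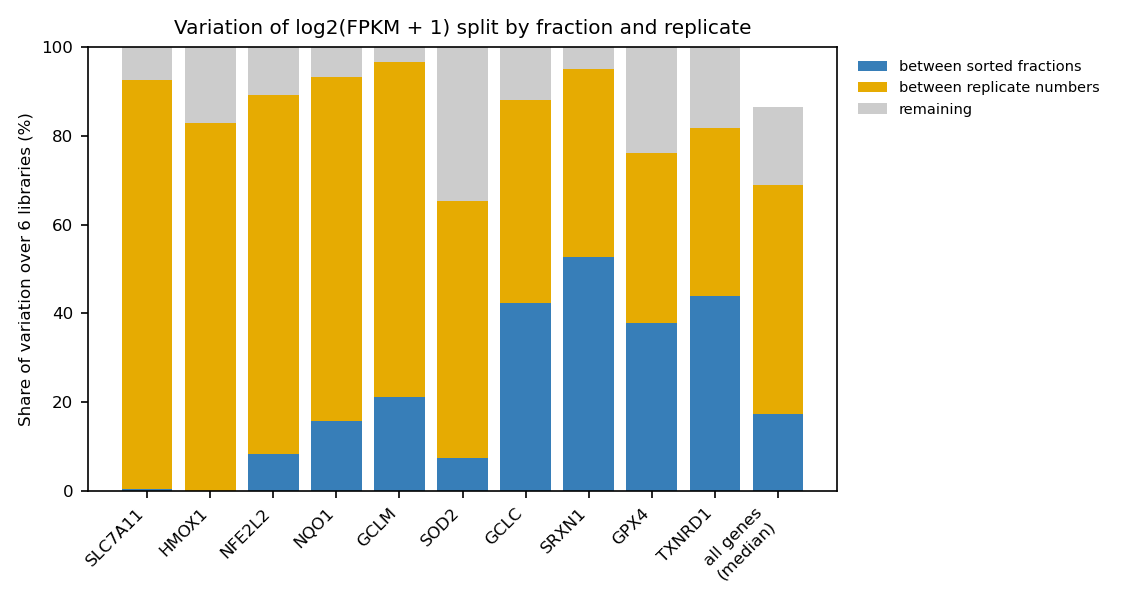
Share of the variation of log2(FPKM + 1) over the 6 libraries that lay between the sorted fractions, between replicate numbers, and in neither, for each gene; the last bar stacks the 3 medians over all 13155 genes tested and so does not reach 100%. SLC7A11, HMOX1, NFE2L2, NQO1 and GCLM have the tallest replicate parts, from 92.1% down to 75.5%.

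Within replicate numbers, 6 of the 10 genes were lower in the CD20-positive library in 3 of 3 pairs (NFE2L2, NQO1, GCLC, GCLM, TXNRD1 and SRXN1), which 20.3% of the genes tested were, and 0 were higher in 3 of 3, which 21.8% were. The median log2 difference of the 10 genes was -0.16, -0.14 and -0.34 in pairs 1, 2 and 3. In the scaling as deposited, the median over all genes tested was 0.00034, 0.0031 and 0.0053.

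Among other genes of the pathway, the paired fit called TXN, GLRX5 and CHAC2 lower and ABCC3 higher. Over all genes tested that fit called 5.83%, of which 2.64% of those tested were lower and 3.19% higher. The thioredoxin and glutathione lists had the lowest medians. Without the block, limma called 0 in each of the 11 other pathway lists. Of 20 genes of the thioredoxin and peroxiredoxin system 18 were tested, 17 of them below 0, with a median log2 change of -0.31, 2 at an unadjusted p under 0.05, and 1 called lower in the paired fit. That gene was TXN, thioredoxin, the substrate of TXNRD1, with 116.3, 95.1 and 69.7 FPKM in CD20-positive libraries, against 199.7, 133.0 and 152.4 FPKM in CD20-negative libraries, so the groups did not overlap. Its log2 change was -0.79 ± 0.25 (limma, adjusted p = 0.433, and 0.0331 in the paired fit), and the call was absent when the replicate 2 or the replicate 3 pair was dropped (adjusted p = 0.136 and 0.472). TXNRD3, a further thioredoxin reductase, measured 3.65 ± 0.307 FPKM in the CD20-positive libraries, against 5.05 ± 0.902 FPKM in the CD20-negative ones (SD, n = 3), without a call in either fit.

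Of 32 genes of the glutathione system 25 were tested, 19 below 0 and 6 above, with a median of -0.30, 3 at an unadjusted p under 0.05, and 2 called lower in the paired fit, GLRX5 and CHAC2 (CHAC2 was named after its values were seen). GLRX5, a mitochondrial glutaredoxin of iron-sulfur cluster assembly, measured 32.9, 17.1 and 14.7 FPKM in CD20-positive libraries, against 37.0, 34.4 and 31.1 FPKM in CD20-negative libraries. CD20-positive replicates 2 and 3 were low, while CD20-positive replicate 1 lay within the CD20-negative range. The log2 change was -0.72 ± 0.29 (limma, adjusted p = 0.520, and 0.0431 when paired). The GLRX5 call was absent when the replicate 2 or the replicate 3 pair was dropped (adjusted p = 0.227 and 0.290), and it passed without the block when CD20-positive replicate 1 was left out (adjusted p = 0.0212). GGCT, an enzyme of glutathione breakdown, had 25.8 ± 3.79 FPKM in the CD20-positive libraries, against 34.8 ± 2.28 FPKM in the CD20-negative ones, and its groups did not overlap, though the paired fit did not call it (adjusted p = 0.132). With the block and a filter of 10 FPKM, 17 genes of this list were tested. GSTO1, GGCT, GLRX5, CHAC2 and GLRX3 were called lower and GGT1 higher (limma, adjusted p = 0.0432 for GGCT). That setting called 21.2% of all genes tested, 11.3% lower and 9.93% higher.

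Of 35 other NRF2 targets 31 were tested, 18 below 0 and 13 above, with a median of -0.06 and 2 at an unadjusted p under 0.05. The paired fit called TXN lower and ABCC3, a drug and conjugate exporter named after its values were seen, higher. With the block and a filter of 10 FPKM, 19 were tested, TXN was called lower and SLC6A6, named after its values were seen, higher. With the block and the FPKM total no gene of this list was called higher. PANX2 measured 7.97 ± 0.868 FPKM in the CD20-positive libraries, against 5.94 ± 0.200 FPKM in the CD20-negative ones and was called in neither fit. Of 18 genes of NRF2 control 17 were tested, 8 below 0 and 9 above, with a median of 0.029, 0 at an unadjusted p under 0.05 and 0 called in the paired fit. With the block and a filter of 10 FPKM, 10 were tested and RBX1, named after its values were seen, was called lower. That setting called 11.3% of all genes tested lower and 9.93% higher. SYVN1, a ubiquitin ligase of the endoplasmic reticulum, and PGAM5, a mitochondrial phosphatase that binds KEAP1, had log2 changes of 0.33 and -0.39 (limma, adjusted p = 0.550 and 0.605).

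Around SLC7A11 and iron, 12 of 14 genes were tested, 9 below 0 and 3 above, with a median of -0.13 and 1 at an unadjusted p under 0.05. SLC3A2, the heavy chain that pairs with SLC7A11 and with other transporter chains, measured 65.1, 48.8 and 55.2 FPKM in CD20-positive libraries, against 45.9, 37.8 and 32.2 FPKM in CD20-negative libraries. The groups did not overlap, whereas those of SLC7A11 did, and the log2 change of SLC3A2 was 0.54 ± 0.19 (limma, adjusted p = 0.485, 0.0611 in the paired fit, and 0.0111 with the block and a filter of 10 FPKM). That last call was absent when the replicate 3 pair was dropped (adjusted p = 0.695), and with each library scaled to the same FPKM total the change of SLC3A2 was 0.03 (adjusted p = 0.896 with the block). SLC7A5, another of its partner chains and a member of the list of the ATF4 amino acid response, measured 109.4 ± 9.65 FPKM in the CD20-positive libraries, against 78.96 ± 11.8 FPKM in the CD20-negative ones, again without overlap and without a call (adjusted p = 0.503, and 0.126 in the paired fit). FTH1, the ferritin heavy chain, measured 1085, 529 and 473 FPKM in CD20-positive libraries, against 1130, 1130 and 955 FPKM in CD20-negative libraries, again with CD20-positive replicates 2 and 3 low (log2 change -0.72 ± 0.34, adjusted p = 0.582). Processed pseudogenes share sequence with FTH1 and TXN and leave their values uncertain. The ATF4 list had 15 of 18 genes tested, 7 below 0 and 8 above, with a median of 0.068 and 2 at an unadjusted p under 0.05.

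The remaining lists held no call in either fit at 1 FPKM. With the block and a filter of 10 FPKM, SOD1, PARK7, SELENOF, SELENOK and SELENOT were called lower and POR and NFKB2 higher (adjusted p = 0.00655, 0.0435, 0.0348, 0.0308, 0.00416, 0.00992 and 0.0353 in that order, limma), of which all but SELENOK and POR were named after their values were seen. In that setting 11.3% of all genes tested were called lower and 9.93% higher. Superoxide and peroxide removal had 7 of 7 genes tested and a median of 0.15, with SOD3 at 3.71 ± 0.365 FPKM in the CD20-positive libraries, against 2.64 ± 0.363 FPKM in the CD20-negative ones, and PXDN at 39.9 ± 4.84 FPKM in the CD20-positive libraries, against 30.1 ± 4.48 FPKM in the CD20-negative ones. Lipid peroxidation control had 8 of 12 tested and a median of 0.036. POR, the reductase partner of cytochromes P450, measured 43.0 ± 8.77 FPKM in the CD20-positive libraries, against 29.1 ± 2.67 FPKM in the CD20-negative ones, and VKORC1L1 measured 11.2 ± 1.05 FPKM in the CD20-positive libraries, against 12.99 ± 0.367 FPKM in the CD20-negative ones. Selenoprotein synthesis and selenoproteins had 12 of 14 tested, 9 below 0, and a median of -0.20, with SELENOW and SELENOK at log2 changes of -0.32 and -0.42. Targets of NF-kappaB, which induces SOD2, had 10 of 14 tested and a median of 0.17. Among them the inhibitor TNFAIP3 had 2.03 ± 0.140 FPKM in the CD20-positive libraries, against 1.28 ± 0.457 FPKM in the CD20-negative ones, and the adhesion molecule ICAM1 had 5.65 ± 0.492 FPKM in the CD20-positive libraries, against 4.47 ± 0.714 FPKM in the CD20-negative ones. Oxidant producing oxidases had 3 of 11 tested and a median of 0.17, with ERO1A and CYBA at log2 changes of 0.30 and 0.17. With each library scaled to the same FPKM total the medians of the 12 lists were below 0, as was that of all genes (-0.41).

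**Figure D4:**
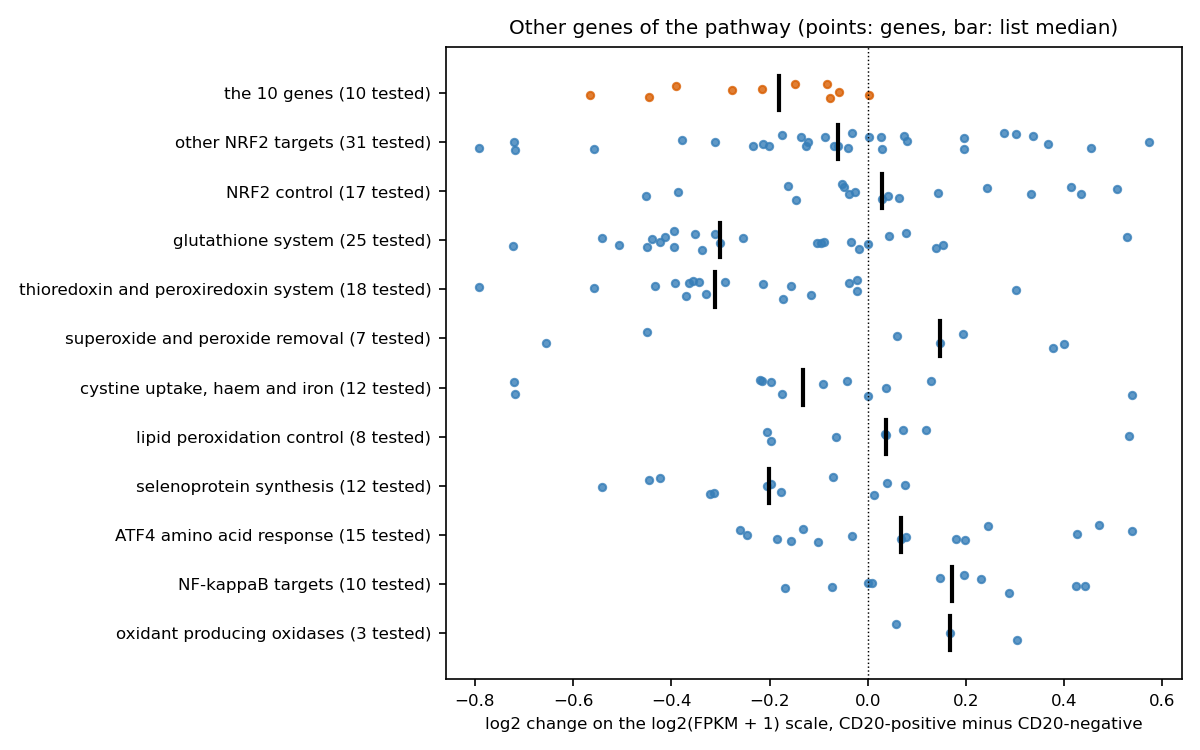
Log2 change on the log2(FPKM + 1) scale, CD20-positive minus CD20-negative, for each tested gene of the pathway lists (points, orange for the 10 genes described here) with the list median (black bar). The thioredoxin and glutathione lists have medians of -0.31 and -0.30, and the 10 genes one of -0.18.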

How the data were processed

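The authors deposited 1 table of FPKM values with no unit in its header, and how they scaled it is not given in the sources used here. The unit was read from the values: multiplied by GENCODE release 29 exon lengths, 98.1% to 98.6% of low values (up to 20 fragments, tolerance 0.02) were whole multiples of 1 step per library, which gave the recovered fragments. The library sizes implied by these steps were 15107847 to 16032265 in CD20-positive and 17830468 to 19782432 in CD20-negative libraries. They differed from the recovered totals, so the values were not scaled to those totals. A median near 0 over all genes depends on this scaling. The submitters' processing notes name the build GRCh38 (hg38) and the tools featureCounts 1.5.0, DESeq2 and HISAT2. Of 58395 genes 58275 matched the annotation. SOD2 has 2 identifiers, and the one with the higher mean was used. Tests used limma 3.58.1 in R 4.3.3 (trend and robust prior, pseudocount 1, mean of at least 1 FPKM) and exact permutation tests in scipy 1.17.1. The limma fit was run on simulated data to see that known changes were recovered. That simulation did not carry the mitochondrial difference between the groups, so it does not show the rate of false calls in these data. Fold changes on log2(FPKM + 1) understate those of low genes. Deviations of same-numbered libraries correlated at 0.67, 0.24 and 0.51, all above the limit of 0.1 set for treating the numbers as pairs. CD20-positive replicate 2 correlated with CD20-negative replicate 3 at 0.40, and CD20-positive replicate 3 with CD20-negative replicate 2 at 0.43. Both were above the 0.24 of the replicate 2 pair, so the pairing of replicates 2 and 3 is less sure.

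The 10 genes and the lists were chosen with earlier results of these data known. Named genes were the 10, up to 2 of each pathway list with the smallest p, KEAP1, MS4A1, the highest gene of each marker list, and the 3 nearest to NFE2L2, of which 1 is not reported here. Intervals cover the spread between these libraries only. Alternatives covered the pseudocount, filter, scaling, prior, block, voom and left-out libraries.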

Additional observations from a re-analysis of the deposited data

How the results depend on the processing

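Alternatives were planned except the paired fits at 10 FPKM that leave out a pair, which were chosen after seeing the data. The count of 1 called gene over all genes became 2 with pseudocount 10, 0 with no filter or voom, 8 (6 higher, 2 lower) with quantile normalisation, 1382 (28 higher, 1354 lower) with the FPKM total, which moved the median of all genes to -0.41, and 767 with the replicate block. With the replicate block it was also 954 at 10 FPKM, 3923 (90 higher, 3833 lower) with the FPKM total, 882 with quantile normalisation, 450 without the trend or robust prior and 1540 with voom. Leaving out 1 library gave 0 to 322 genes, the highest without CD20-positive replicate 1. With the replicate block, leaving out pair 1, 2 or 3 gave 2141, 1 and 331 genes, and at 10 FPKM 1212, 887 and 64. Of the 10 genes 0 were called, apart from the settings that follow. GPX4 alone was called with the FPKM total (1382 of 13155 genes called) and with the replicate block at 10 FPKM (954 of 4503). Voom with the block called 2, GPX4 and SRXN1 (1540 of 13141). The block with the FPKM total called 6, where 3923 of 13155 genes were called, 3833 of them lower. Libraries or pairs left out gave 0 to 2. The 2 were GPX4 and NQO1 without pair 1, where 2141 of 13155 genes were called, and 1212 of 4503 at 10 FPKM. The median of the 10, -0.18, was -0.65 with the FPKM total, that is -0.23 relative to all genes, with or without the replicate block, -0.075 with pseudocount 10, -0.087 with the total over genes not encoded in mitochondria, -0.35 to -0.11 with 1 library left out, and -0.31 at 10 FPKM with the block and pair 2 left out. The block changed the calls of TXN, GLRX5 and PMEL among the named genes.

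Directions turned as follows. With the FPKM total, with or without the block, HMOX1 was -0.48, PANX2 -0.086, SYVN1 -0.16, SOD3 -0.012, PXDN -0.10, SLC7A5 -0.042, ICAM1 -0.14, ERO1A -0.17, CYBA -0.35, KEAP1 -0.45 and KRT8 -0.33. With the total over genes not encoded in mitochondria, NFE2L2 was 0.024, SLC7A11 0.032 and SOD2 0.0063. HMOX1 was -0.015 with the median of ratios, -0.0055 with pseudocount 0.1, -0.044 with quantile normalisation in both fits, -0.035 with voom and -0.014 with voom and the block. With 1 library left out, HMOX1 ranged from -0.40 to 0.23, SLC7A11 from -0.31 to 0.28, KEAP1 from -0.17 to 0.15, SOD2 from -0.18 to 0.012, NFE2L2 from -0.17 to 0.019 and CD37 from -0.46 to 0.12. With the block and pair 1 left out, HMOX1 was -0.25, SLC7A11 0.029, KEAP1 -0.14 and KRT8 -0.050, and with pair 3 left out SLC7A11 was 0.024 and SOD2 0.027. The cause was not tested for any of these. Depth limits SRXN1, with 33 to 125 fragments per library.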
